A study of Caenorhabditis elegans with 2 samples.

Results

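The nuclear hormone receptor genes of Caenorhabditis elegans were examined in messenger RNA from whole wild-type hermaphrodites aged 5 days, kept on heat-inactivated OP50, the Escherichia coli strain used as standard laboratory food. Members were the WormBase genes named nhr followed by a number, together with daf-12. The rule found 270 genes among 46748 in the count table, and all 270 are annotated as protein-coding. Receptor genes with other names, such as unc-55, fax-1, odr-7 and sex-1, fall outside the rule. The titles name the N2 strain and the strain label leaves it unspecified. The series title sets the samples in work on the OP50 diet and lifespan, and the libraries were made with an Illumina mRNA kit. The study had 1 group of 2 libraries, named replicate 1 and replicate 2, and therefore no contrast between conditions. The labels do not say whether the libraries came from separate cultures or how many animals were pooled. The p-values here measure departure from counting noise between these 2 libraries alone, not a spread between animals or cultures.

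Nuclear hormone receptors are transcription factors that carry a zinc-finger domain for binding DNA and a second domain that can bind small lipophilic molecules such as steroids and fatty acids. Nematodes hold a much enlarged family, most of it related to the vertebrate receptor HNF4, beside a small set of receptors with counterparts in insects and vertebrates. In the worm, members are known for setting fat composition and the response to food and bacterial metabolites, for moulting, for the choice between growth and the dauer larva, and for the fate of single cells during development.

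Replicate 1 held 28164638 counts and replicate 2 held 31271070 counts, so that 3 counts corresponded to 0.107 and 0.0959 CPM (counts per 1000000 counts of the library). The yolk protein gene vit-6 was at 6231 CPM per kb in both libraries and the germ granule gene pgl-1 at 242 and 241 CPM per kb. The intestinal genes ges-1 and elt-2 were far below vit-6, at 18.6 and 20.1 and at 4.38 and 3.86 CPM per kb. The muscle myosin genes unc-54 and myo-3 were at 101.6 and 89.8 and at 10.3 and 8.72 CPM per kb. The neuronal genes unc-119 and rab-3 were at 12.1 and 12.3 and at 1.70 and 1.93 CPM per kb. Markers of the same tissue thus differed widely in level. Of 3 sperm genes examined, spe-9 was the only member detected, with 18 and 13 counts. In whole animals, fewer cells of a type and less RNA per cell cannot be told apart. Levels below are CPM divided by the annotated exon length in kilobases (CPM per kb). Where values are not given library by library, they are means with the SD over both libraries (n = 2). With 2 libraries the SD can lie far below counting error, above all for genes with few counts. Whether gaps between the ranges of genes exceed counting error was not tested.

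Most receptor genes were transcribed, and nearly all of those at a low level. With detection set at 10 or more counts in both libraries, 166 of the 270 members (61.5%) were detected, beside 62.5% of the 19641 protein-coding genes in the table, so the share of receptor genes detected was near that of protein-coding genes as a whole. Their levels were not. The median of the 166 detected members was 1.57 ± 0.0128 CPM per kb, against 11.5 ± 0.202 CPM per kb for the 12268 detected protein-coding genes. With undetected genes kept, the medians were 0.643 ± 0.0221 CPM per kb for all 270 members and 1.28 ± 0.0121 CPM per kb for all protein-coding genes. Of the detected members, 90 lay in the lowest quartile of detected protein-coding genes, 65 in the next, 10 in the one above that and 1 in the highest. All members together took 0.132% of the counts in replicate 1 (95% Wilson interval 0.130% to 0.133%) and 0.131% in replicate 2 (0.130% to 0.133%). These intervals and the floor of 3 counts cover counting error only.

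By annotated exon length, which joins the exons of all transcripts of a gene, members were not shorter than protein-coding genes as a whole. The median was 1354 bases over all 270 members and 1172 bases over all protein-coding genes, and the members ran from 466 to 4831 bases. Over detected genes the medians were closer, at 1473.5 bases for members and 1447 bases for protein-coding genes. Detection was shallow for many of them: 39 detected members had fewer than 30 counts in the smaller library, while 65 had at least 100 counts and 8 had at least 1000 counts in both. Just inside the detection limit were nhr-231 with 10 and 10 counts, nhr-179 with 10 and 17 counts, and nhr-208 with 12 and 10 counts. Just outside it were nhr-235 and nhr-275, each with 8 and 9 counts, and nhr-270 with 8 and 11 counts.

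**Figure D1:**
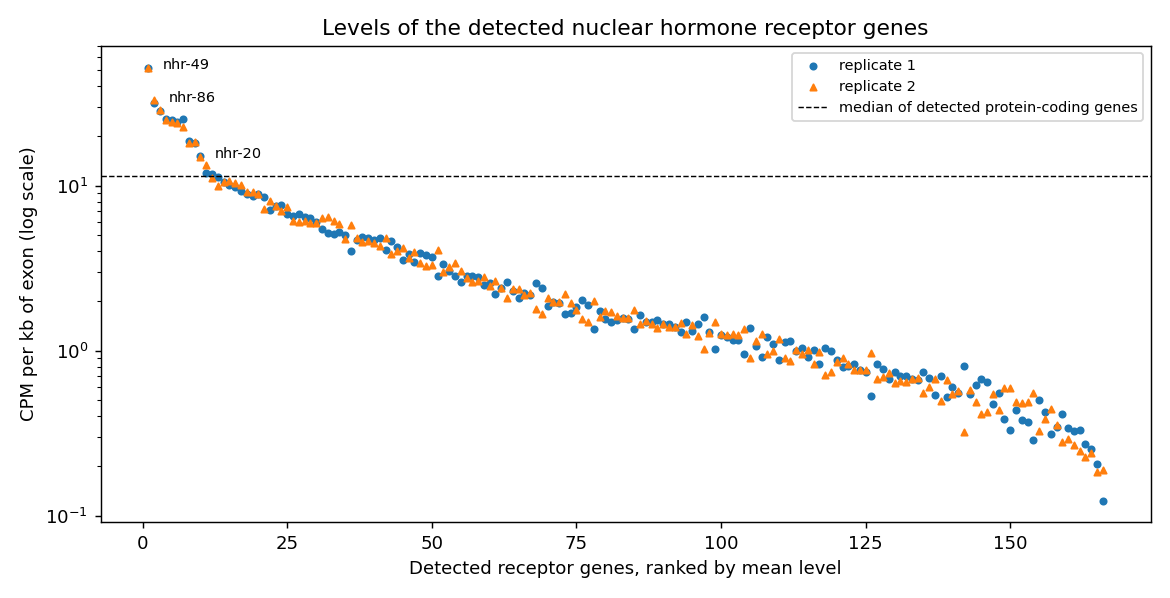
Level of each of the 166 detected receptor genes in replicate 1 (circles) and replicate 2 (triangles), ranked by the mean on the x axis, with CPM per kb of exon on a log y axis; the dashed line is the median of detected protein-coding genes (11.5 CPM per kb). The line is crossed near the 11th gene, and the curve falls from 51.9 to under 0.2 CPM per kb.

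A small number of genes carried much of the family's transcript. The 10 highest members held 39.0% ± 0.276 of the summed CPM per kb of all 270, and the 20 highest held 54.1% ± 0.0816. First was nhr-49 (WBGene00003639, WBcel235 chromosome I, 9869651 to 9874680), an HNF4-related activator of fatty acid desaturation and beta-oxidation genes, with 3111 counts in replicate 1 and 3463 in replicate 2. Its level of 51.8 and 51.9 CPM per kb placed it at percentile 78.4 of detected protein-coding genes, and it was the only member in their highest quartile. The libraries lay far closer to each other for nhr-49 than either lay to the next gene.

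Second came nhr-86 (chromosome V, 2061106 to 2066850), which takes part in the intestinal response to bacterial metabolites, with 1263 and 1457 counts, or 31.7 and 32.95 CPM per kb. Next was nhr-274 (chromosome IV, 1637954 to 1645298), with 1615 and 1828 counts, or 28.3 and 28.8 CPM per kb. The ranges of these 2 genes did not overlap each other or that of any other member.

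Of the next 4 genes, nhr-66, nhr-23 and nhr-46 had separate ranges in that order, and nhr-71 could not be placed among them. The margins were small, with nhr-66 at 25.08 CPM per kb or more and nhr-23 at 25.07 CPM per kb or less. Whether they exceed counting error was not tested. For nhr-66, a partner of NHR-49 in the control of lipid genes, there were 3432 and 3789 counts, more than for nhr-49 itself, but over an annotated exon length of 4831 bases the level was 25.2 and 25.1 CPM per kb. The moulting regulator nhr-23 stood at 25.1 and 24.3 CPM per kb, nhr-46 at 24.3 and 23.9 CPM per kb, and nhr-71 at 25.3 and 22.6 CPM per kb. The range of nhr-71 spanned those of the other 3 genes. The order also depends on the gene models. With the exon length implied by the authors' RPKM, 2799 bases, nhr-66 was at 43.4 RPKM, second after nhr-49 at 51.5 RPKM. The gene nhr-274, with 1463 bases in place of 2028, was then at 39.6 RPKM. By the authors' lengths nhr-46 (21.5 and 21.2 RPKM) lay above nhr-23 (21.05 and 20.4 RPKM) without overlap. The gene nhr-71 (25.5 and 22.8 RPKM) lay above both.

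The genes in places 8 to 15 by mean level were nhr-13, nhr-2, nhr-20, nhr-10, nhr-76, nhr-48, nhr-22 and nhr-68, at 18.3 down to 10.4 CPM per kb. The gene nhr-97 was at 7.57 CPM per kb, in place 22, over 4671 annotated exon bases, but with the 2469 bases implied by the authors' RPKM it was at 14.3 RPKM, in place 11, and nhr-68 was then in place 17. Of these, nhr-20 (chromosome III, 669 and 735 counts) was at 15.1 and 14.9 CPM per kb and nhr-22 (chromosome II, 566 and 625 counts) at 10.5 CPM per kb in both libraries. The range of nhr-13 (18.6 and 18.0 CPM per kb) contained that of nhr-2 (18.1 and 18.4 CPM per kb). In all, 16 members reached 10 CPM per kb, or 9.64% of those detected, against 51.7% of detected protein-coding genes.

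Receptors of lipid metabolism were all present and spanned a wide range. All 8 genes of that list were detected, with a median of 9.26 ± 0.00933 CPM per kb, beside 1.57 CPM per kb for detected members as a whole. After nhr-49 and nhr-66 came nhr-13, whose product can bind NHR-49, with 744 and 799 counts (18.3 ± 0.432 CPM per kb). The gene nhr-76, which acts in fat loss driven by serotonin signalling, had 521 and 547 counts (11.4 ± 0.452 CPM per kb). That is just under the median of detected protein-coding genes, which 3 of the 8 genes exceeded (nhr-49, nhr-66 and nhr-13). Further below it lay the HNF4-related nhr-69 (7.09 ± 0.470 CPM per kb) and nhr-64 (6.34 ± 0.346 CPM per kb).

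Lower again was nhr-62, which is needed for the long life of diet-restricted worms, with 191 and 251 counts (4.46 ± 0.530 CPM per kb). Lowest of the list was nhr-80, an activator of the stearoyl-CoA desaturase gene fat-6, with 146 and 194 counts (3.10 ± 0.393 CPM per kb). The ranges of nhr-62 and nhr-80 did not overlap.

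Transcripts of genes known to depend on NHR-49 were present over a broad range. All 9 genes of that list were detected at a median of 44.4 ± 2.32 CPM per kb, and 6 of the 9 exceeded the median of detected protein-coding genes. The desaturase gene fat-7 was at 42.8 and 46.1 CPM per kb, the acyl-CoA synthetase gene acs-2 at 41.3 and 37.7 CPM per kb, and the glyoxylate cycle gene icl-1 at 130 and 123 CPM per kb. The flavin monooxygenase gene fmo-2 was low, at 4.04 and 6.50 CPM per kb, as were the carnitine palmitoyltransferase gene cpt-5 at 8.44 and 7.02 CPM per kb and ech-1.1 at 2.04 and 1.62 CPM per kb. The levels of fat-5 and fat-6 rest on the gene model: per annotated exon length they were 110 ± 9.44 and 200.4 ± 13.04 CPM per kb, and by the authors' lengths 52.1 and 67 RPKM. A coactivator of NHR-49, the Mediator subunit gene mdt-15, was at 40.6 and 37.5 CPM per kb, below the level of nhr-49 in both libraries.

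Receptors tied to propionate and vitamin B12 were close together near the middle of detected genes. The gene nhr-10 had 519 and 640 counts (11.9 and 13.2 CPM per kb) and nhr-68 had 380 and 443 counts (10.1 and 10.6 CPM per kb). Their products together switch on the propionate shunt when propionate builds up. The range of nhr-10 lay above that of nhr-68 by slightly less than the gap between the libraries of nhr-10 itself. The gene nhr-114, required for fertility on food poor in vitamin B12, had 370 and 435 counts (8.64 and 9.15 CPM per kb). The 5 shunt genes were all detected at a median of 197 ± 2.87 CPM per kb, with acdh-1 at 271 and 277 CPM per kb and alh-8 at 557 and 577 CPM per kb.

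Of the steroid receptor group, daf-12 was not the highest member. The gene daf-12 encodes the receptor of dafachronic acids, the steroid hormones that prevent dauer entry, and had 352 and 383 counts over 4442 exon bases, or 2.81 and 2.76 CPM per kb. Its relative nhr-8, which acts in cholesterol balance and in resistance to toxic compounds, had 151 and 239 counts (2.84 and 4.04 CPM per kb). Another relative, nhr-48, had 1038 and 1022 counts (11.2 and 9.97 CPM per kb), above the other 2 genes in both libraries. The ranges of nhr-8 and daf-12 stood next to each other without overlap, closer together than the spread of nhr-8. That order rests on the gene models. By the authors' lengths nhr-8 was at 2.28 and 3.24 RPKM, a range that contained that of daf-12 (3.04 and 2.98 RPKM).

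Genes that make or handle the hormone were scarce apart from a reductase. Of the 6, 5 were detected, at a median of 1.498 ± 0.0466 CPM per kb. The cytochrome P450 gene daf-9, whose enzyme makes the last step to dafachronic acid, had 34 and 22 counts (0.585 and 0.341 CPM per kb), and the Rieske oxygenase gene daf-36 had 143 and 184 counts (3.68 and 4.26 CPM per kb). For hsd-1 there was 1 count in each library, under the floor of 3 counts. The P450 reductase gene emb-8, which serves many P450 enzymes, was at 81.1 and 82.7 CPM per kb. The DAF-12 corepressor gene din-1 was at 15.7 and 14.97 CPM per kb, the NCoR-related corepressor gene gei-8 at 13.8 ± 0.300 CPM per kb, and the coactivator gene cbp-1 at 63.5 and 59.2 CPM per kb. All 4 cofactor genes examined, mdt-15 included, exceeded the median of detected protein-coding genes.

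Among receptors of stress and toxin responses, nhr-86 stood apart. The other 5 genes were detected between 0.760 and 4.16 CPM per kb. They were nhr-14, a repressor of intestinal iron uptake, with 223 and 234 counts (4.16 ± 0.166 CPM per kb), nhr-45, which acts in the response to mitochondrial damage (211 and 212 counts, 3.49 ± 0.247 CPM per kb), nhr-8, the hypoxia-inducible nhr-57 (67 and 79 counts, 1.57 ± 0.0669 CPM per kb) and nhr-176, which is needed for the cytochrome P450 response to the drug thiabendazole (26 and 29 counts, 0.760 ± 0.00246 CPM per kb). The ranges of nhr-8 and nhr-45 overlapped, but not by the authors' lengths (2.28 and 3.24 RPKM against 3.73 and 3.37 RPKM). Of 3 drug and infection response genes examined, cyp-35D1, the thiabendazole-metabolising P450 gene, was at 3.13 and 3.71 CPM per kb, and the genes irg-4 and irg-5 were at 213 and 248 CPM per kb and at 53.4 and 52.7 CPM per kb.

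Moulting and epidermal receptors split into nhr-23 and the rest. The gene nhr-23, related to vertebrate ROR and insect DHR3, had 1784 and 1924 counts, while the 5 other genes of that list had between 14 and 112 counts in a library. The gene nhr-41, related to insect DHR78, was at 1.495 ± 0.0100 CPM per kb. The gene nhr-25, the worm counterpart of SF-1 and Ftz-F1 and a regulator of moulting and of epidermal and gonadal cells, was at 1.42 ± 0.0403 CPM per kb. Its range lay just below that of nhr-41, on 105 and 112 counts against 91 and 102. Whether that gap exceeds counting error was not tested. The genes nhr-67, nhr-60 and nhr-85 were at 0.432 ± 0.0731, 0.350 ± 0.00716 and 0.316 ± 0.0328 CPM per kb. That order turns with the authors' lengths, by which nhr-85 was at 0.488 RPKM, nhr-67 at 0.459 RPKM and nhr-60 at 0.363 RPKM. Of nhr-85's annotated exon bases, 33.2% overlap npr-14 on the other strand, which itself had 1 and 5 counts, and 7.22% of those of nhr-60 overlap F57A10.4, which had 470 and 638 counts beside 14 and 16 for nhr-60.

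Genes of the moulting programme lay well below nhr-23. The transcripts of mlt-10, mlt-8 and nas-37 were at 3.14 and 2.69, at 3.05 and 2.28, and at 2.37 and 1.42 CPM per kb in replicates 1 and 2, against 25.1 and 24.3 CPM per kb for nhr-23. The cuticle collagen genes dpy-7 and bli-1 had 49 and 33 counts and 52 and 19 counts.

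Developmental receptors ranged from a level above the typical gene to a single count. The gene nhr-2, which is transcribed in the early embryo, had 942 and 1062 counts (18.3 ± 0.198 CPM per kb). The gene nhr-40, which acts in muscle and movement, had 329 and 358 counts (5.96 ± 0.0850 CPM per kb). The gene nhr-6, the worm member of the NR4A group and a regulator of the spermatheca, had 122 and 124 counts (1.66 ± 0.104 CPM per kb). The tailless-related nhr-67, a regulator of the anchor cell, had 17 and 24 counts, and nhr-85, related to insect E75, had 24 and 23 counts. The gene nhr-111 had 1 count in replicate 1 and 0 in replicate 2, both under the floor of 3 counts, and was the only receptor on these lists that was not detected.

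**Figure D2:**
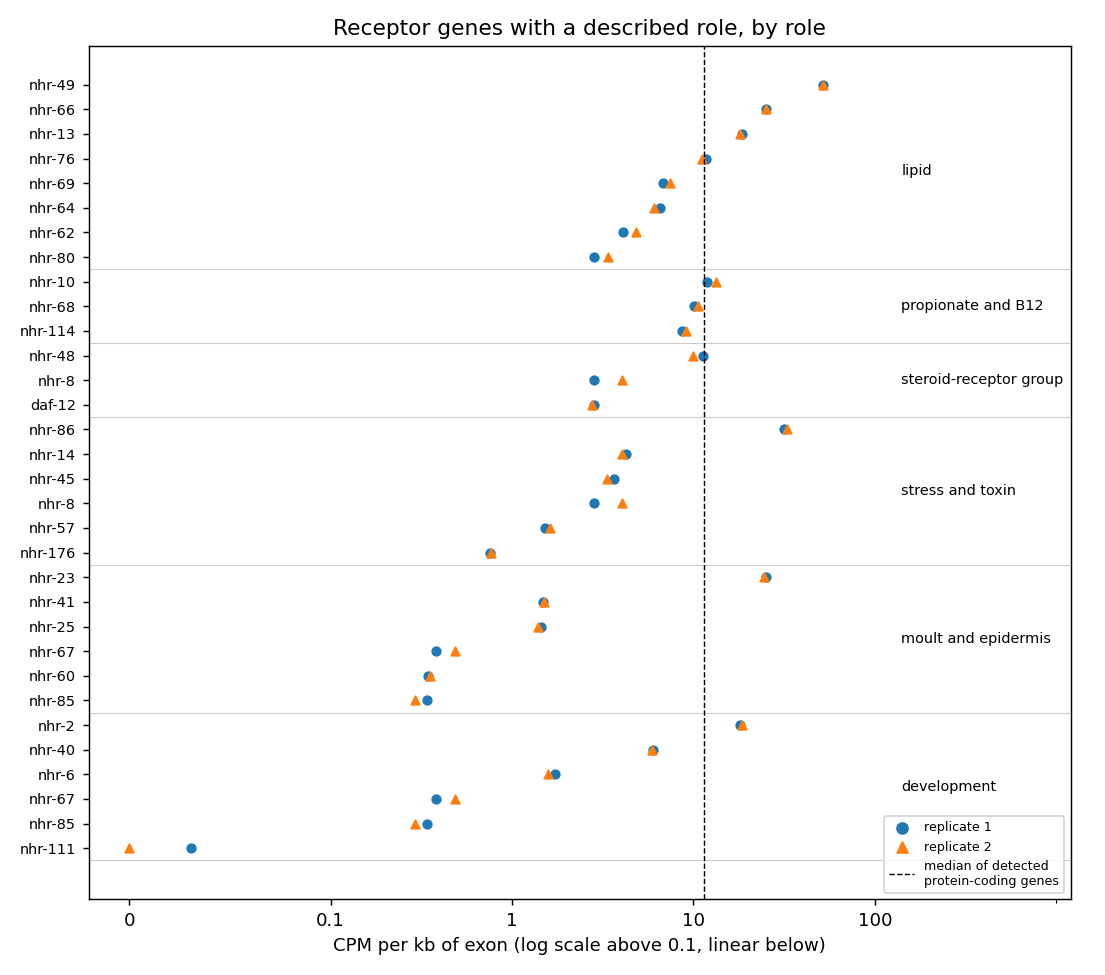
Level of each receptor gene with a described role in replicate 1 (circles) and replicate 2 (triangles), by role and, within a role, from highest to lowest; the x axis is CPM per kb of exon, log above 0.1 and linear below, and the dashed line is the median of detected protein-coding genes. In the stress and toxin, moult and epidermis, and development roles, nhr-86, nhr-23 and nhr-2 are the sole genes right of the dashed line.

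Nearly all genes on a chosen list of receptors with counterparts beyond nematodes were detected. Of the 11 genes on that list 10 were detected, against 156 of the other 259 members (60.2%), a difference that was not tested. The list was not shown to be complete, so the other members may include receptors of that kind. The medians of the detected genes were 1.58 ± 0.0468 CPM per kb for the conserved list and 1.57 ± 0.0128 CPM per kb for the other members. Members on the conserved list had longer annotated exons, with a median exon length of 2498 bases against 1345 bases, and a longer transcript gives more counts at the same level. Apart from those described above, the list held nhr-91, related to vertebrate GCNF, with 48 and 71 counts (1.03 ± 0.207 CPM per kb).

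Chromosome V held 167 of the 270 members (61.9%) but 35.4% of their summed CPM per kb. Of these, 102 were detected (61.1%), against 46.9% of all protein-coding genes on that chromosome, and the median of the detected members was 1.18 ± 0.0471 CPM per kb. On the other chromosomes, 64 of 103 members were detected (62.1%), against 67.7% of their protein-coding genes, at a median of 4.01 ± 0.0608 CPM per kb. Of the 65 members with at least 100 counts in both libraries, 19 were on chromosome V and 46 elsewhere. All detected protein-coding genes had a median of 6.10 CPM per kb on chromosome V and 13.1 CPM per kb off it, so a lower level on that chromosome was not limited to receptor genes.

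Chromosomes IV and X had the largest detected shares. On chromosome IV, 26 of 33 members were detected (78.8%), against 61.6% of its protein-coding genes, at a median of 3.65 ± 0.472 CPM per kb. On chromosome X, 17 of 24 members were detected (70.8%), near the 66.9% of its protein-coding genes. Their median of 4.16 ± 0.166 CPM per kb was close to the 4.25 CPM per kb of all detected protein-coding genes there. That gap was the smallest of the 6 chromosomes. Chromosomes II and III held 15 and 8 members, of which 8 and 5 were detected (53.3% and 62.5%). The shares of their protein-coding genes were 62.4% and 78.4%. The detected members there had medians of 2.10 ± 0.0210 and 3.10 ± 0.393 CPM per kb.

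Chromosome I joined the family's highest gene with its lowest detected share, 8 of 23 members (34.8%) against 71.8% of its protein-coding genes. Its detected members had a median of 6.71 ± 0.0622 CPM per kb. The lipid receptors nhr-62, nhr-49 and nhr-69 lay within one stretch (9839598 to 9881504), at 4.46, 51.9 and 7.09 CPM per kb. Further along, from nhr-74 to nhr-169 (11429014 to 12443780), there were 15 members, of which only nhr-74 was detected, with 25 and 11 counts. That stretch was singled out after its values were seen.

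**Figure D3:**
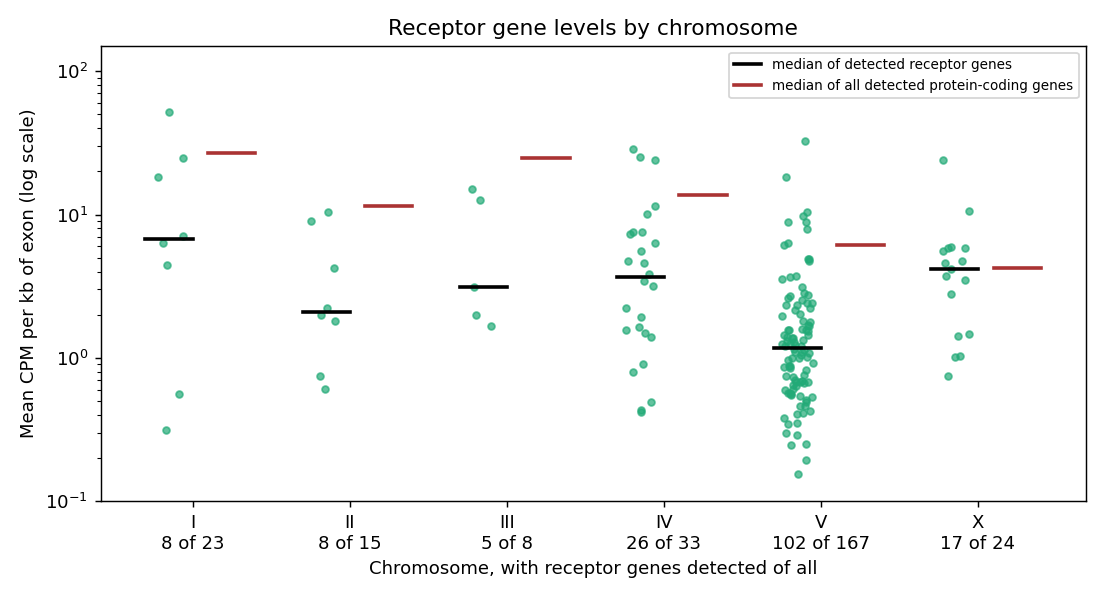
Mean level of each detected receptor gene (points) by chromosome, with the median of the detected receptor genes (black bar) left of the median of all detected protein-coding genes on the same chromosome (red bar); the y axis is CPM per kb of exon on a log scale and the x axis gives receptor genes detected of all. The bars are furthest apart on chromosome III, where they are at 3.10 and 24.8 CPM per kb, and nearly level on chromosome X.

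Many receptor genes lie side by side, and such neighbours differed widely between runs. Counting members with no other protein-coding gene starting between them, 137 members fell into 44 runs, 28 of them pairs. In runs, 78 of 137 members were detected (56.9%), at a median of 1.14 ± 0.0162 CPM per kb, and outside runs 88 of 133 (66.2%), at a median of 3.14 ± 0.239 CPM per kb. Most members in runs were on chromosome V, where the median of detected members was 1.18 CPM per kb, against 4.01 CPM per kb elsewhere. Lying in a run was not separated from chromosome here. In 18 runs every member was detected, in 16 none was, and 10 were mixed. Members of a short run can match by chance, and whether these counts exceed that was not tested. The longest run, 9 genes from nhr-185 to nhr-124 on chromosome V (3844429 to 3886204), had no detected member. Its highest gene, nhr-158, had 7 and 15 counts, and the other 8 had at most 4 counts in a library.

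By contrast, the 7 genes from nhr-56 to nhr-96, also on chromosome V (2219004 to 2235180), were all detected. They lay between 0.495 CPM per kb for nhr-128, with 31 and 27 counts, and 2.21 CPM per kb for nhr-18, with 74 and 84 counts. Another run of 7 on chromosome V (6980587 to 7000651), from nhr-161 to nhr-42, was likewise all detected, from 0.405 to 3.70 CPM per kb, and a run of 6 from nhr-51 to nhr-198 (15674007 to 15696217) was not detected at all, with no member above 2 counts. In mixed pairs a detected gene could stand beside one with far fewer counts. On chromosome V, nhr-12 had 396 and 476 counts and its neighbour nhr-205 had 3 and 15. On chromosome IV, nhr-31 had 323 and 340 counts and its neighbour nhr-258 had 3 and 2. Similarity between neighbours was not analysed here, so counts of close relatives could be split between them in ways that cannot be seen.

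**Figure D4:**
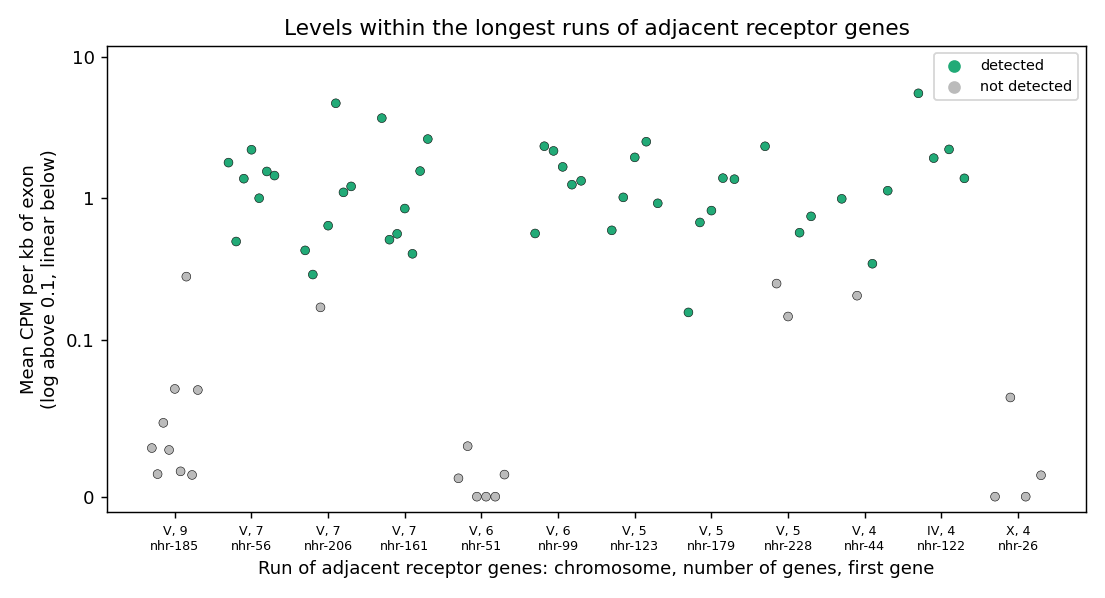
Mean level of every member in the 12 longest runs of adjacent receptor genes, each run labelled by its chromosome, number of genes and first gene, with members in genome order inside a run; the y axis is CPM per kb of exon, log above 0.1 and linear below, with detected genes in green and undetected genes in grey. The run starting at nhr-185 is grey throughout and that starting at nhr-56 is green throughout.

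Of the 104 undetected members, 33 had no count in either library, 23 had counts in 1 library only and 48 had counts in both. The 33 genes without a count were on chromosome V (19), chromosome I (8), chromosome IV (3), chromosome X (2) and chromosome II (1). A count of 0 allows up to 3 counts, or 0.107 and 0.0959 CPM, so these genes were not detectable at this depth. For 6 undetected members, 1 library reached 10 counts.

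No receptor gene passed both thresholds for a difference between the replicates. An exact two-sided binomial test on the counts compared the libraries gene by gene, with Benjamini-Hochberg adjustment over 14397 genes, and calls needed both an adjusted p under 0.05 and a ratio of 2-fold or more. It compares 2 libraries of the same group under counting noise alone and says nothing of conditions. None of the 182 members tested was called, beside 0.75% of all genes tested (108 genes), and 18 members (9.89%) had an unadjusted p under 0.05, beside 20.8% of all genes. At an adjusted p under 0.05 with no fold threshold there were 4 members (2.20%), beside 11.3% of all genes. Members and other genes were not compared at matched counts, so the part that depth has in these shares was not tested.

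The 4 members at that looser threshold went both ways, 2 higher in replicate 2 (beside 5.66% of all genes) and 2 lower (beside 5.69%). Higher in replicate 2 were nhr-102, with 154 and 247 counts in replicates 1 and 2 (1.43-fold, binomial adjusted p = 0.00778), and nhr-8, with 151 and 239 counts (1.41-fold, adjusted p = 0.0130). Lower in replicate 2 were nhr-71, with 1640 and 1632 counts although replicate 2 had the larger total (0.886-fold, adjusted p = 0.00817), and nhr-48, with 1038 and 1022 counts (0.877-fold, adjusted p = 0.0308). The sole detected member past 2-fold was nhr-74, with 25 and 11 counts (0.402-fold, adjusted p = 0.0836), 1 of 166 (0.602%), beside 0.8% of all detected genes.

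The median absolute log2 ratio was 0.16 over the detected members and 0.10 over detected protein-coding genes, and it was 0.10 over the 65 members with at least 100 counts in both libraries. The collagen gene bli-1 was lower in replicate 2 past both thresholds, and dpy-7, with 49 and 33 counts, was not called. Over the 6 moulting and epidermal receptors, the median log2 ratio was -0.03. Whether the difference in bli-1 has a part in any receptor value was not tested.

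**Figure D5:**
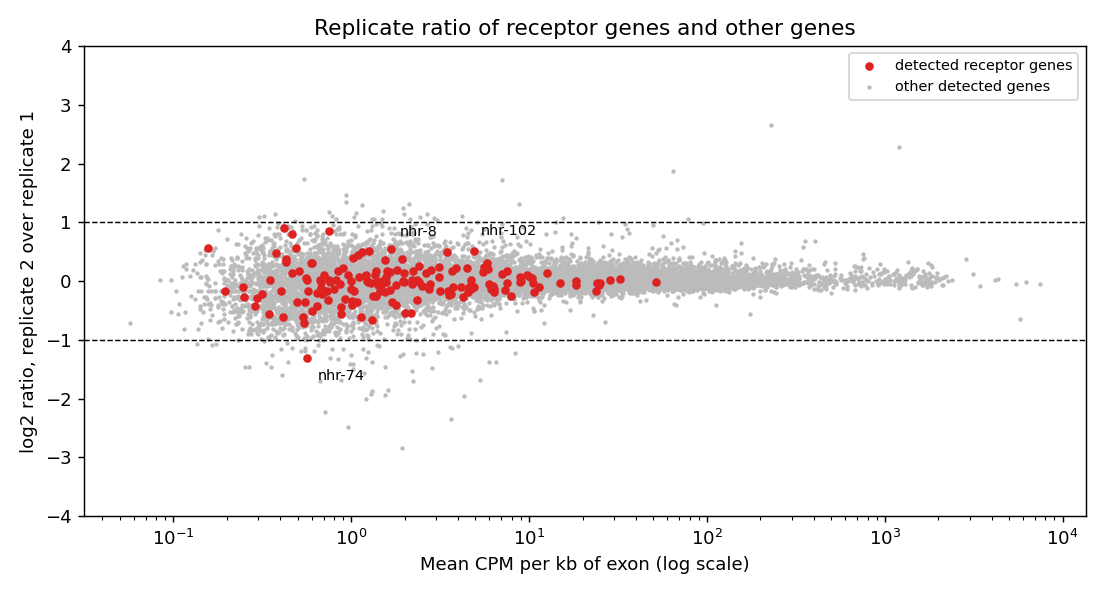
Log2 ratio of replicate 2 over replicate 1 against the mean level in CPM per kb of exon (log x axis), for detected receptor genes (red) and all other detected genes (grey); dashed lines mark 2-fold differences. The receptor genes narrow towards 0 as the level increases, and nhr-74 is the single red point beyond a dashed line.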

How the data were processed

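The deposited count table holds raw counts per WormBase gene, and the deposited RPKM table holds reads per kilobase scaled to a read total. Per the submitters' processing notes, STAR 2.4.1d, featureCounts 1.4.6-p4 and the build WBcel235 were used. The strand setting, counting options and annotation release are not stated there. Reads from a member and from a gene that overlaps it on either strand may therefore be mixed, and near-identical members could share reads. At least 5% of the exon bases were overlapped by another gene in 20 members, 9 of them detected. The libraries held 28164638 and 31271070 counts.

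Symbols came from the supplied gene name table, which matched all 270 members, and exon lengths (union of exons) and coordinates from Ensembl release 115 of the same build. CPM used each library's own total. The libraries were compared with a two-sided exact binomial test in scipy 1.17.1 (doubled smaller tail), with TMM library sizes from edgeR 4.0.16, over genes whose summed count reached 10, and log2 ratios had 0.5 added to each count. The test was tried on simulated data first.

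The read total behind the deposited RPKM changed with row number in 8 steps, and matched the library's own total in 1 of 8 row classes, so RPKM was rescaled to that total. RPKM values in the text are the rescaled ones. Members and gene lists were chosen with earlier results of these data known. Genes named are the 15 highest members, all receptors on the lists, genes at the detection limit, and members that differed between the libraries. Pathway and marker genes are named in part only. Members of runs and of the chromosome I stretch were named after their values were seen. Lists cover lipid, propionate and B12, steroid, stress, moulting, developmental and conserved receptors and their pathway genes. Alternatives covered the detection limit, the scaling, the length, each library alone and DESeq2 1.42.0 size factors.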

Additional observations from a re-analysis of the deposited data

How the results depend on the processing

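The number of detected members, 166, was 214 with at least 1 count in both libraries, 126 with at least 1 CPM in both, and 65 with at least 100 counts in both. It was 157 without members overlapped by another gene over at least 5% of their exon bases, and 167 to 171 with either library alone. The median of detected members, 1.57 CPM per kb, was unaltered to the digits printed by TMM or median-of-ratios sizes. It was 1.72 with RPKM as deposited, 1.67 with the rescaled RPKM, 2.49 CPM with no division by length, and 0.643 with undetected members kept. With either library alone it was 1.54 to 1.56. Of the 35 members that are on a role list or among the 15 highest, nhr-66 and nhr-85 moved by over 1.5 times with the rescaled RPKM, and nhr-274 too with RPKM as deposited. With either library alone only nhr-111, which had 1 count in all, moved so far. The comparison of the libraries called 103 to 111 genes across the scalings and filters and 1634 without a fold threshold, against 108. It called no receptor gene in any of these settings except that without a fold threshold, which called 4. Leaving out a library leaves nothing to compare. No paired analysis was possible because there is 1 group. The rescaled RPKM and the setting without members overlapped to that extent were chosen after seeing the data. With 39 detected members under 30 counts in the smaller library, depth limits the order of the lower members.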
